A study of Homo sapiens with 72 samples.

Results

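The genes described here encode the factors that start and elongate protein synthesis. Names beginning with EIF1 to EIF6 or with EEF1 or EEF2 were taken from the count table, which gave 85 names. From these, 5 kinase names beginning with EIF2AK, 6 methyltransferase names holding KMT, 2 EEF2K names and 3 pseudogenes were left out. The remaining 69 of 44659 gene names were analysed. Of these, 58 name a translation factor or a close relative of one. They were divided by role into 10 genes of the eIF2 complex, its exchange factor eIF2B and the related EIF2A and EIF2D, 14 of eIF3, 12 of cap binding and RNA unwinding, 4 for proteins that bind and restrain or move eIF4E, 8 of scanning, start choice and subunit joining, and 10 of elongation. The other names were 4 extra copies ending in _1 and 7 further genes: the methyltransferase EEF1AKNMT, the readthrough EEF1E1-BLOC1S5, the antisense and divergent RNAs EIF1AX-AS1, EIF1B-AS1, EIF2B5-DT and EIF3J-DT, and EIF2S3B.

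Initiation begins when eIF2, bound to GTP and the initiator tRNA, joins the small ribosomal subunit together with eIF1, eIF1A, eIF3 and eIF5. The cap-binding protein eIF4E, the scaffold eIF4G and the helicase eIF4A bring this complex to the mRNA, eIF5 promotes GTP hydrolysis at the start codon, and eIF2B recharges eIF2 for another round. During elongation eEF1A delivers aminoacyl-tRNAs and eEF2 moves the ribosome along the mRNA. The mRNAs of several of these factors are known to begin with an unbroken run of pyrimidines, which ties their own translation to growth signalling.

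Cytoplasmic RNA from A375 cells, an established human melanoma line, was measured by QuantSeq, which reads the 3′ end of polyadenylated RNA. In the siRNA experiment cells received a pool of 2 siRNAs against CTU2, a tRNA-modifying enzyme (siCTU2), or the control siRNA siGL2, for 42 h. In the medium experiment cells were kept for 18 h in medium depleted of glutamine (mQ) or in control medium (pQ). All groups were then given triptolide at 25 µM, which arrests transcription, alone (T) or with cycloheximide at 100 µg/ml, which arrests translation (TCHX), and were collected at 0, 3 and 5 h. There were thus 24 groups of 3 libraries, all from a single cell line, and all 0 h libraries also belong to one of the triptolide arms. The labels do not say that libraries of a group came from separate cultures, so p-values measure the spread between these libraries, which may be technical. In bulk RNA, fewer cells and less RNA per cell cannot be told apart. Levels are given as CPM, the count of a gene scaled to a fixed library total. A 3′ count is not divided by transcript length, and levels are therefore compared between libraries and not between genes.

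Total counts were 5987692 to 15534331 per library, and the translation factors took 1.37 to 2.03% of them. CTU2 was at 2.95, 1.01 and 1.32 CPM in siCTU2 at 0 h of the T arm and at 21.1, 22.0 and 24.2 CPM in siGL2, but at 10.4 CPM in replicate 3 of siCTU2 TCHX 5 h, which thus went against its label. More genes were detected in that library, in mQ T 5 h replicate 3 and in pQ TCHX 0 h replicate 3 (19896 to 20364) than in the remaining 69 libraries (15507 to 17495). At 0 h of the T arm SOX10 was at 226 to 424 and MITF at 110 to 377 CPM. Pigment genes were uneven. DCT was at 21.6 to 111 and PMEL at 2.21 to 8.09 CPM, whereas MLANA and TYR did not exceed 0.866 and 1.02 CPM. Markers of keratinocytes, leukocytes, endothelium and fibroblasts had at most 18 counts in any of these 12 libraries.

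Start sites of the factor genes were examined for pyrimidine runs. The 25 bases around the RefSeq start (10 before it and 15 from it, GRCh38.p14) are printed for the 7 genes whose mRNAs were lower in some late libraries and for others with large decay or 0 h changes, together with EEF2. Capitals mark an unbroken run of C or T that includes the start base.
EEF1A1, chr6:73521018-73521042, minus strand: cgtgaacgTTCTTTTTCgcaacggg
EEF2, chr19:3985449-3985473, minus strand: cgtcagcgTTCTCTTCCgccgtcgt
EIF3F, chr11:7987327-7987351, plus strand: cttccgCCTCCTTCTTTCTCgacaa
EIF3M, chr11:32583821-32583845, plus strand: gcccagTTCCCTTTTCCggtcggcg
EIF4H, chr7:74174346-74174370, plus strand: ctcgctcaCCCTggttcctctcgga
EIF1B, chr3:40309697-40309721, plus strand: cattttgtgcgagaagccgcagcgc
EIF2B1, chr12:123633672-123633696, minus strand: gtacggaagtgcgccggaagtgggg
EIF2D, chr1:206612451-206612475, minus strand: ccagccgggCCCTTTTCgcggccgg
EIF4A2, chr3:186783567-186783591, plus strand: gcgccgctgTCTTTTCagtcgggcg
EIF5, chr14:103334227-103334251, plus strand: ggcgttgttcagtcagagcgagaac
EIF4ENIF1, chr22:31489828-31489852, minus strand: gccgggctgcagttacggcggctga
EIF1AD, chr11:66002143-66002167, minus strand: cagcgccggaagtacggttttcgga
EEF1E1, chr6:8102534-8102558, minus strand: tgcaggtctcgcgtctgccaggagc
EIF3I, chr1:32222397-32222421, plus strand: ttccggtcttactcacgttgcggcc
EIF3J, chr15:44537137-44537161, plus strand: ccgccgtgctaactcctcgctagct

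Of the 58 factor names, 48 had a promoter in the table, and in 11 of them the start base lay inside such a run of at least 5 bases (22.9%). Among all 35116 promoters the share was 9.6%. Names with no entry were EEF1A2, EEF1D, EIF2S2, EIF3A, EIF3CL, EIF3E, EIF3G, EIF3H, EIF3L and EIF4EBP1. The 11 were EEF1A1, EEF2, EIF2A, EIF2D, EIF2S3, EIF3D, EIF3F, EIF3K, EIF3M, EIF4A2 and EIF4B. The run is a description of letters at an annotated start, and the starts used in A375 cells were not measured.

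Some abundant members had almost no counts. EIF4A1, EIF4E1B, EEF1E1-BLOC1S5 and EIF1AX-AS1 had 0 counts in all libraries, and 11 of the 69 names, 6 of them factor names, had under 100 counts over all libraries together. EIF4A1, the main helicase, lies within the readthrough locus SENP3-EIF4A1, which had 11 counts. EIF4A3, the helicase of the exon junction complex, had 1 count in all, EIF3K 45 and EIF5A, the hypusinated elongation factor, 504. These values describe the table and were not read as expression levels. EIF3C and EIF3CL are near-identical copies between which reads could have been divided, and each had single libraries far above the rest, such as EIF3C at 132 CPM in mQ T 0 h replicate 1 against 20.2 and 8.77 CPM in replicates 2 and 3. The same was seen for EIF5AL1, a copy of EIF5A, at 20.5 CPM in siCTU2 T 0 h replicate 3 against 2.21 and 5.81 CPM, and for EIF5A at 17.2 CPM in pQ T 3 h replicate 1. Results for these genes are uncertain.

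Translation factors also separated a set of libraries from their groups. At 5 h, EEF1A1 and some other factor mRNAs were far lower in replicate 3 than in replicates 1 and 2 in 6 of 8 groups. The remaining groups, siCTU2 TCHX and mQ T, lacked this pattern, but their replicate 3, a library with extra genes in each, differed in other members, by 1.53 on the log2 scale for EEF1E1 in siCTU2 TCHX and by 1.82 for EIF5 and 1.69 for EIF1AD in mQ T. EEF1A1, which carries aminoacyl-tRNA to the ribosome, was at 2723, 3245 and 382 CPM in replicates 1, 2 and 3 of siGL2 T 5 h, and at 2841, 2767 and 421 CPM in those of pQ T 5 h. Of 45 members with a median of at least 10 CPM, 7 were lower by more than 1 on the log2 scale in replicate 3 of each of the 6 groups: EIF4H (median difference −3.39), EIF2D (−3.02), EEF1A1 (−2.74), EIF3F (−2.01), EIF1B (−1.94), EIF3M (−1.88) and EIF2B1 (−1.75). EIF4E2, a cap-binding relative of eIF4E, was higher by more than 0.5 in each of the 6, with a median of 0.82. Replicate 2 of mQ T 0 h showed lower levels of some of these mRNAs too, with EEF1A1 at 781 CPM against 2509 and 3331 CPM and EIF4H at 5.61 against 19.1 and 32.5 CPM. Replicate 2 of siCTU2 TCHX 5 h had EEF1A1 at 1299 CPM against 3121 and 2513 CPM. Of the 7 genes, 4 (EEF1A1, EIF2D, EIF3F and EIF3M) had a pyrimidine run of at least 5 bases, EIF4H had one of 4, and EIF1B and EIF2B1 had none at the start base. EEF2, which has a run of 9, had a median difference of −0.15. The other compared genes with a run of at least 5, EIF4A2, EIF2S3, EIF4B, EIF3D and EIF2A, had −0.89, −0.80, −0.79, −0.09 and 0.35. The source of these differences was not tested. Decay was therefore measured over 3 h, but the 5 h libraries stayed in the fit and entered each gene's estimated spread.

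The first comparison asked whether depletion of CTU2 altered the mRNAs of the translation machinery before decay. The scaffold EIF4G1, the eIF3 subunit EIF3J and EEF1E1 (also called AIMP3, a scaffold of the tRNA synthetase complex) were downregulated in siCTU2 cells, whereas EIF3I and the scaffold relative EIF4G2 were upregulated. By edgeR's quasi-likelihood test with Benjamini-Hochberg adjustment over all genes, 24 of 55 tested members passed an adjusted p of 0.05, 12 higher and 12 lower, where 36% of all genes tested passed, 17.8% higher and 18.2% lower. The median log2 change of the members was 0.039 and that of all genes 0.005.

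Among eIF3 subunits, 1 rose and 2 fell of 13 tested, where 17.8% of all genes rose and 18.2% fell. EIF3I (chr1:32221077-32245397), a WD-repeat subunit, was at 489, 507 and 528 CPM in siCTU2 and at 291, 289 and 257 CPM in siGL2. All siCTU2 libraries were above all siGL2 libraries, by 1.82-fold (log2 change 0.86 ± 0.07 SE, adjusted p = 2.6e-08). EIF3J (chr15:44537125-44563029), the loosely bound subunit that contacts the decoding site, went the other way, at 256, 260 and 274 CPM in siCTU2 against 514, 513 and 508 CPM in siGL2. Its level was 1.95-fold lower without overlap (log2 change −0.96 ± 0.06, adjusted p = 2.2e-09). In the medium experiment EIF3I was at 445 to 577 CPM and EIF3J at 293 to 418 CPM over mQ and pQ together, so that siGL2 held the lowest EIF3I and the highest EIF3J levels of the 4 conditions. The experiments were separate and this was not tested. EIF3B, a scaffold subunit, fell by 0.28, and EIF3A had a change of 0.07 (adjusted p = 0.46).

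Cap-binding and helicase genes had 6 of 8 tested members called, where 36% of all genes were. EIF4G1 (chr3:184314495-184335358) was at 322, 363 and 352 CPM in siCTU2 and at 536, 564 and 562 CPM in siGL2, 1.60-fold lower (log2 change −0.68 ± 0.07, adjusted p = 2.6e-07). EIF4G3, its paralogue, fell by 0.50 ± 0.09, at 71.5, 65.2 and 77.1 against 101, 92.5 and 109 CPM (adjusted p = 0.00038). EIF4G2 (chr11:10797050-10808940), which lacks the part that binds eIF4E, rose from 1073, 1105 and 1034 CPM to 1553, 1564 and 1497 CPM (log2 change 0.52 ± 0.05, adjusted p = 6.2e-07). The 3 eIF4G mRNAs thus did not move together, and for each the groups did not overlap. EIF4E2 rose by 0.34, the helicase EIF4A2 fell by 0.33, and the eIF4A cofactor EIF4H passed the test at 0.30. In the TCHX arm at 0 h the EIF4H levels lay the other way, at 30.9, 53.7 and 36.4 CPM in siCTU2 and 72.0, 57.8 and 53.8 CPM in siGL2. EIF4E had 103, 104 and 88.9 CPM in siCTU2 and 109, 113 and 90.6 CPM in siGL2, which overlap.

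The eIF4E inhibitors moved in opposite directions. EIF4EBP1, which blocks eIF4G binding when hypophosphorylated, was at 114, 127 and 104 CPM in siCTU2 against 157, 175 and 162 CPM in siGL2 (log2 change −0.52 ± 0.09, adjusted p = 0.00011). EIF4EBP2, with the same activity, was at 76.2, 93.1 and 85.5 against 69.0, 61.0 and 53.6 CPM (log2 change 0.47 ± 0.11, adjusted p = 0.0019). Neither pair of groups overlapped.

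Of the 10 genes of eIF2 and eIF2B, 2 rose and 4 fell, where 17.8% of all genes rose and 18.2% fell. EIF2S2 and EIF2S3, the beta and gamma subunits of eIF2, rose by 0.30 ± 0.06 and 0.38 ± 0.08. EIF2S1, the alpha subunit that the stress kinases phosphorylate, fell by 0.19 ± 0.07, with 231, 226 and 218 CPM against 251, 270 and 248 CPM. The eIF2B genes EIF2B1, EIF2B2 and EIF2B5 fell by 0.38, 0.47 and 0.36, EIF2B5 being the catalytic subunit. EIF2S2 and the catalytic EIF2B5 therefore had opposite signs, each without overlap between the groups.

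Elongation factors, with EEF1E1 counted by its name, had 4 of 9 tested members called, where 36% of all genes were. EEF1E1 (chr6:8073360-8102559) had the largest fall of all called members, from 63.6, 74.0 and 58.2 CPM in siGL2 to 30.6, 24.2 and 22.9 CPM in siCTU2 (log2 change −1.34 ± 0.13, adjusted p = 2.3e-07). EEF1A1 was at 3321, 3264 and 3256 CPM against 2698, 2831 and 2636 CPM, a rise of 0.27 ± 0.05 (adjusted p = 0.0003), and EEF2 rose by 0.16 ± 0.05 (adjusted p = 0.026). Both differences were smaller in the TCHX arm at 0 h, at 0.13 (adjusted p = 0.17) and 0.08 (adjusted p = 0.40). EIF5AL1 passed the test at 1.93 ± 0.55, but without siCTU2 replicate 3 its change was 0.66 (adjusted p = 0.28).

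In the scanning and joining group, EIF5, which triggers GTP hydrolysis on eIF2, rose by 0.28 ± 0.07. EIF6, which keeps the large subunit apart from the small subunit, rose by 0.36 ± 0.08, and EIF1, which enforces start codon choice, fell by 0.17 ± 0.06. EIF3I, EIF3J, EIF4G1, EIF4G2 and EEF1E1 were called with the same sign in the TCHX arm at 0 h, at 0.86, −0.94, −0.60, 0.47 and −1.72. EEF2, EIF1 and EIF2S1 were called in only 1, 3 and 1 of the 6 fits that left out a library.

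**Figure D1:**
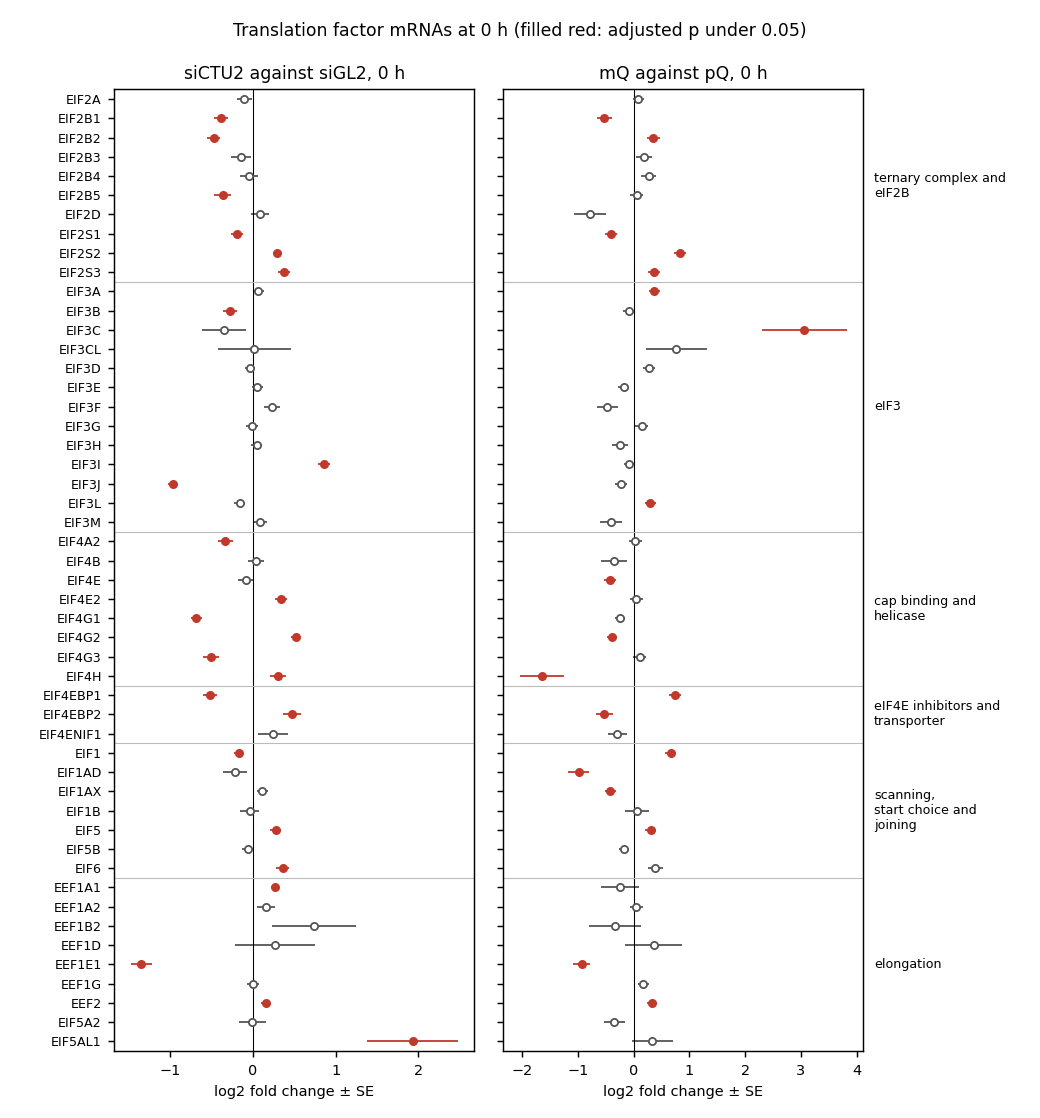
Log2 change ± SE at 0 h of the T arm for each tested translation factor, grouped by role, for siCTU2 against siGL2 (left) and mQ against pQ (right); filled red points passed an adjusted p of 0.05. In the siRNA panel EIF3I and EIF4G2 lie to the right and EEF1E1, EIF3J and EIF4G1 to the left, and in the medium panel EIF2S2, EIF4EBP1 and EIF1 lie to the right.

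The second comparison asked how the same genes responded to glutamine-free medium. The eIF2 subunit EIF2S2, the inhibitor EIF4EBP1 and EIF1 were upregulated in mQ, and the cap-binding protein EIF4E, EIF1AD and EEF1E1 were downregulated. Of 54 tested members 20 were called, 10 in each direction, where 24.8% of all genes were, 12.5% higher and 12.4% lower, and the medians were −0.021 for members and 0.010 for all genes.

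EIF2S2 (chr20:34088309-34112243) was at 1290, 1624 and 1273 CPM in mQ and at 831, 816 and 808 CPM in pQ, 1.77-fold higher (log2 change 0.82 ± 0.11, adjusted p = 0.0004). EIF1 (chr17:41688885-41692668) was at 1191, 1120 and 1375 CPM against 805, 811 and 796 CPM (0.66 ± 0.10, adjusted p = 0.0008). EIF4EBP1 was at 245, 273 and 235 CPM against 167, 156 and 146 CPM (0.74 ± 0.11, adjusted p = 0.0007). The mQ libraries were above the pQ libraries for all 3 genes, which were also called in each of 6 fits without a library and in the TCHX arm at 0 h, at 0.51, 0.69 and 0.59.

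The cap-binding group had 0 called rises and 3 falls of 8 tested, where 12.5% of all genes rose and 12.4% fell. EIF4E (chr4:98879276-98929133) was at 77.5, 91.6 and 75.5 CPM in mQ and at 113, 113 and 114 CPM in pQ (log2 change −0.42 ± 0.11, adjusted p = 0.018), and its change in the TCHX arm was −0.49 (adjusted p = 0.024). EIF4E was called in only 2 of the 6 fits that left out a library (largest adjusted p = 0.072). EIF4G2 fell by 0.39 ± 0.09. EIF4H passed the test at −1.65 ± 0.40, but its mQ libraries ranged from 5.61 to 32.5 CPM, its change was −1.19 without mQ replicate 2, and it was −0.11 in the TCHX arm (adjusted p = 0.86). When pQ replicate 3, a library with extra genes, was left out of the TCHX fit, EIF4H was called at −0.41 (adjusted p = 0.019). EIF4EBP2 was at 29.4, 23.4 and 31.7 CPM against 44.5, 37.6 and 43.7 CPM, a fall of 0.52 ± 0.15 without overlap (adjusted p = 0.024). It was called in 3 of the 6 fits that left out a library.

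EIF2S1 fell by 0.41 ± 0.11, from 238, 237 and 222 CPM in pQ to 182, 148 and 177 CPM in mQ (adjusted p = 0.017), while EIF2S3 rose by 0.36 ± 0.11. In the T arm at 0 h the 3 subunits of eIF2 thus divided into a pair that rose and EIF2S1, which fell, in both experiments. EIF2S1 was the less firm part. It was called in 1 of the 6 fits that left out a library for siCTU2 and in 4 of 6 for mQ. In the TCHX arm at 0 h it was not called in either, at −0.21 and −0.26 (adjusted p = 0.0503 and 0.258). EIF2B2 rose by 0.35 ± 0.11. EIF2B1 passed the test at −0.52 ± 0.13 and EIF3A at 0.38, but in the TCHX arm at 0 h they were at −0.01 (adjusted p = 0.97) and 0.04 (adjusted p = 0.89). When pQ replicate 3 was left out of the TCHX fit, they were at −0.16 and 0.17 (adjusted p = 0.285 and 0.164). EIF3L rose by 0.30, and the call of EIF3C at 3.06 ± 0.76 rests largely on mQ replicate 1 (1.19 without it).

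EIF1AD, an eIF1A domain protein, was at 17.3, 12.6 and 17.6 CPM in mQ and at 27.7, 39.9 and 29.5 CPM in pQ (log2 change −0.98 ± 0.19, adjusted p = 0.0039). EEF1E1 was at 34.9, 26.4 and 42.4 CPM against 70.0, 70.0 and 65.1 CPM (−0.93 ± 0.16, adjusted p = 0.0018), again without overlap, but its change was −0.03 in the TCHX arm at 0 h (adjusted p = 0.92). EIF1AX, which encodes eIF1A, fell by 0.41 ± 0.09, EIF5 rose by 0.31 ± 0.10 and EEF2 by 0.33 ± 0.09 (adjusted p = 0.022). In the TCHX arm at 0 h EIF5, EEF2, EIF1AD, EIF2S1 and EIF4EBP2 were not called, at 0.10, 0.15, −0.57, −0.26 and −0.59 (adjusted p = 0.554, 0.411, 0.199, 0.258 and 0.0559). Leaving out pQ replicate 3, a library with extra genes, EIF1AD, EIF2S1 and EIF4EBP2 were called there, at −0.84, −0.38 and −0.41. In the T arm EIF5 and EEF2 were called in only 2 and 1 of the 6 fits that left out a library. EEF1A1 overlapped between the groups at −0.24 (adjusted p = 0.65), with mQ replicate 2 far below the other libraries, and had a change of 0.33 (adjusted p = 0.0097) in the TCHX arm without pQ replicate 3.

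**Figure D2:**
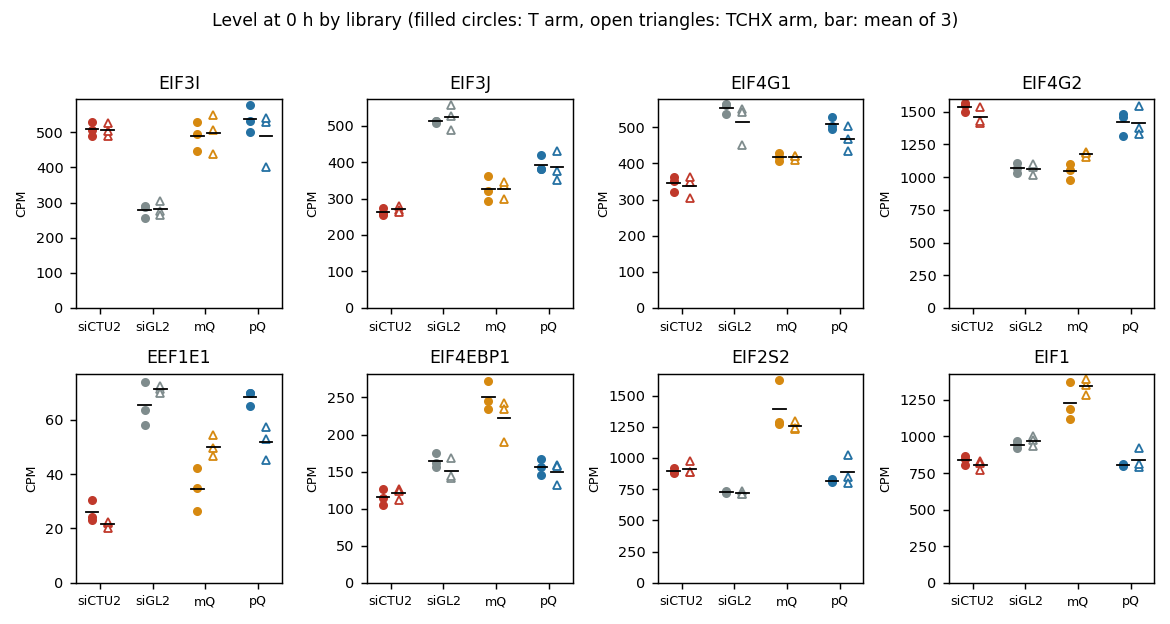
Level (CPM) of 8 translation factor mRNAs in each 0 h library of the 4 conditions, with T libraries as circles and TCHX libraries as triangles. EIF3I is lowest and EIF3J highest in siGL2, and EIF2S2, EIF1 and EIF4EBP1 are highest in mQ.

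The difference between both responses was tested in a fit of the 12 T libraries at 0 h. Of 55 members, 18 differed, 8 with a more positive and 10 with a more negative response to siCTU2 than to mQ, and 32% of all genes differed, 15.9% in the positive and 16.1% in the negative direction. EIF4EBP1 had the smallest p of the members, falling with siCTU2 and rising in mQ (difference −1.26 ± 0.14, adjusted p = 1.9e-06). EIF4G2, EIF3I and EIF4EBP2 had differences of 0.91, 0.94 and 0.99, and EIF1, EIF2B2 and EIF3J of −0.84, −0.83 and −0.74. EIF2S2, which rose in both, rose further in mQ (−0.53 ± 0.12, adjusted p = 0.0028). Of 9 elongation factors tested, 0 were called, although EEF1E1 and EEF2 had passed in both single comparisons, each with the same sign. In the TCHX arm at 0 h EEF2 was called in neither comparison (adjusted p = 0.40 and 0.41). EEF1E1 was not called there in mQ, at −0.03 (adjusted p = 0.92).

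Decay was measured as the change from 0 to 3 h in the T arm. Counts were scaled by genes whose share rose by at least 10% by 3 or 5 h in every replicate. There were 198 such genes in the siRNA and 82 in the medium experiment. They were picked from these same libraries, and on this scale a gene of constant share reads as falling. The fits also held the 5 h libraries, whose spread entered each test. EIF4A2, EIF1AD, EIF4ENIF1 and EIF5 were among the members called as falling in all 4 conditions, and EEF1A1 was not called in any. Of 55 tested members, 18 fell in siCTU2, 13 in siGL2 and 29 in mQ, and 29 of 56 fell in pQ, where 37.2, 29.7, 56.5 and 56.3% of all genes were called, 36, 28.6, 55.4 and 55.2% lower and 1.21, 1.05, 1.1 and 1.06% higher. The only called rise of a member was that of EIF5A in pQ (log2 change 3.13 ± 1.28, adjusted p = 0.045), which rests on replicate 1 of pQ T 3 h and was −0.60 without replicate 1. Median changes of members and of all genes were −0.485 and −0.549 in siCTU2, −0.353 and −0.471 in siGL2, −0.504 and −0.713 in mQ, and −0.567 and −0.692 in pQ. The members' median was thus less negative in all 4. Scaled by library composition (TMM) instead, the medians of all genes were −0.002, 0.006, 0.014 and 0.004 and those of the members 0.059, 0.128, 0.216 and 0.135, and 5, 3, 1 and 2 members were called. The direction of weak decays thus depends on the scale, and EIF4EBP1 was itself among the scaling genes.

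EIF4A2 (chr3:186783205-186789897), a helicase paralogue of EIF4A1, was called in all conditions on both scales. Its normalised counts in siCTU2 were 1233, 1201 and 1170 at 0 h and 361, 346 and 439 at 3 h, so that 31.8% ± 4.17 (SD, n = 3) of the 0 h mean was left. In siGL2 they went from 1257, 1591 and 1385 to 624, 501 and 621, leaving 41.2% ± 4.95. In mQ and pQ 34.4% ± 4.01 and 28.5% ± 7.89 were left, and in no condition did a 3 h library reach the lowest 0 h library. The log2 changes were −1.65 ± 0.30, −1.28 ± 0.30, −1.54 ± 0.23 and −1.81 ± 0.29 in siCTU2, siGL2, mQ and pQ (adjusted p = 0.0005, 0.0044, 0.00032 and 0.00012). Of 3 fits that each left out a replicate, 2, 1, 3 and 3 called EIF4A2 in these conditions (largest adjusted p = 0.16, in siGL2).

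EIF5 (chr14:103333544-103345025) fell from 5280, 5282 and 4960 normalised counts to 2313, 2941 and 2584 in siCTU2, and from 4374, 4471 and 4169 to 1878, 1599 and 1867 in pQ. Its log2 changes were −0.99 ± 0.14, −0.97 ± 0.13, −1.27 ± 0.39 and −1.28 ± 0.17 in the 4 conditions in the order above (adjusted p = 6.5e-05, 3.1e-05, 0.012 and 2.1e-05). On the TMM scale they were −0.44, −0.49, −0.53 and −0.57 and EIF5 was called in no condition (adjusted p = 0.0998, 0.101, 0.362 and 0.121). EIF4ENIF1, the transporter that carries eIF4E into the nucleus and represses mRNAs in the cytoplasm, changed by −0.98 to −1.42, and EIF1AD by −1.14 to −1.84, both called in all 4. On the TMM scale EIF4ENIF1 was not called in mQ or pQ (−0.70 in pQ, adjusted p = 0.125). EIF1AD was not called on that scale in siGL2 or mQ (−0.99 in mQ, adjusted p = 0.116). In all, 11 of the 55 members tested in every condition fell in each of them: EIF4A2, EIF4ENIF1, EIF1AD, EIF5, EEF1AKNMT, EIF4E, EIF3A, EIF5B, EIF2S2, EIF4G1 and EIF3B. A further 20 were called in none. Not all of these calls held when a replicate was left out. In siGL2 EIF4ENIF1, EIF4E, EIF3A and EIF4G1 were called in 1 of 3 such fits, and EIF5 in 3 of 3. EIF4G1 was called in 1 of 3 in siCTU2, and EIF5 in 1 of 3 in mQ (largest adjusted p = 0.131). On the TMM scale EIF4G1 had changes of 0.05, 0.13, 0.03 and 0.18.

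EIF4E fell by 0.62 to 0.78, the eIF3 core subunit EIF3A by 0.60 to 0.84 and the joining GTPase EIF5B by 0.46 to 0.89. EEF2 fell in siCTU2, mQ and pQ by 0.56, 0.42 and 0.61, and had −0.44 in siGL2 (adjusted p = 0.099). EEF1A1 kept 75.3% ± 5.67 of its 0 h mean at 3 h in siCTU2 and 75.5% ± 6.66 in siGL2, and its fitted changes of −0.41, −0.41, 0.06 and −0.59 had standard errors of 0.49 to 0.65. In siGL2 its normalised counts were 33630, 36040 and 31360 at 0 h and 25700, 27510 and 23050 at 3 h, without overlap. Replicate 3 of siGL2 T 5 h, which was in the same fit, had 2963. Of 3 fits that each left out a replicate, 1 called EEF1A1 in siGL2, 1 in pQ and 0 in siCTU2 and mQ. EEF1E1 fell in siCTU2 and pQ, by 1.56 ± 0.38 and 0.96 ± 0.32, and had −0.53 and −0.44 in siGL2 and mQ, which were not called. EIF3J-DT, the RNA divergent from EIF3J, had the most negative called value in siGL2, −1.69 ± 0.28, from 9.59, 9.38 and 10.0 CPM at 0 h to 2.49, 5.16 and 4.18 CPM at 3 h. EIF3C had that in mQ, −2.93 ± 0.83, but its value was −1.13 (adjusted p = 0.208) without replicate 1. Members with a pyrimidine run at the start had median changes of −0.54, −0.33, −0.28 and −0.64 in siCTU2, siGL2, mQ and pQ (10 members), against −0.48, −0.36, −0.52 and −0.52 for those without (30 or 31 members), an order that was not the same in all conditions.

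The difference in decay itself was tested between siCTU2 and siGL2 and between mQ and pQ. By edgeR's interaction test 0 of 56 members and 0% of all genes passed in either, and 3 and 2 members had an unadjusted p under 0.05. The numbers of called members differed between conditions without a detected difference in the decay of any member.

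The effect of cycloheximide was the mean difference of TCHX and T at 3 and 5 h. EIF5 and EIF4ENIF1 were higher with cycloheximide in siCTU2, siGL2 and pQ, and EIF4A2 in siCTU2 and pQ, whereas most translation factor mRNAs were not detectably altered. Calls numbered 10 of 55 members in siCTU2, all higher (21.1% of all genes, 21% higher and 0.169% lower), 3 of 55 in siGL2, all higher (12.7%, 12.1% higher and 0.555% lower), 0 of 55 in mQ (5.24%, 5.12% higher and 0.119% lower) and 4 of 56 in pQ, 3 of them higher (12.7%, 12.3% higher and 0.457% lower). In mQ 4 members had an unadjusted p under 0.05 and DESeq2 called 0. The members' medians were 0.063, −0.060, −0.106 and −0.042 against 0.215, 0.046, 0.048 and 0.058 for all genes, and 43 of 55 members were called in no condition.

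EIF5 in siCTU2 had 1287, 1652 and 1447 normalised counts at 5 h of T and 3699, 3950 and 3621 at 5 h of TCHX, or 28.3% ± 3.54 and 75.6% ± 3.46 of the 0 h mean of its arm (SD, n = 3). In siGL2 the counts were 1333, 1440 and 1607 against 2915, 2689 and 2709, or 36.6% ± 3.47 and 66.1% ± 2.99. In pQ 30.1% ± 8.39 and 73.3% ± 6.70 were left, and in these 3 conditions the arms did not overlap at 5 h. The effects were 0.92 ± 0.10, 0.70 ± 0.09 and 0.89 ± 0.12 in siCTU2, siGL2 and pQ (adjusted p = 2.5e-06, 2.5e-05 and 3.3e-05). In mQ the T libraries at 5 h had 832, 979 and 3610 counts, the last being a library with extra genes, and the effect was 0.71 ± 0.27 (adjusted p = 0.15). Without replicate 3 it was 1.28 (adjusted p = 5.5e-09). At 3 h alone the EIF5 effect was 0.47 to 0.55 and at 5 h alone 0.86 to 1.36. It was not called at 3 h alone in siCTU2 (adjusted p = 0.054) or pQ.

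EIF4ENIF1 had effects of 0.90 ± 0.15, 0.87 ± 0.21 and 0.74 ± 0.18 in siCTU2, siGL2 and pQ, all called, and of 0.46 ± 0.27 in mQ (adjusted p = 0.40). In siGL2 and in pQ it was called in only 1 of the 3 fits that left out a replicate (largest adjusted p = 0.157 and 0.273). At 5 h 26.5% ± 5.87 was left in T and 48.4% ± 6.61 in TCHX for siCTU2, and 19.4% ± 6.32 and 32.9% ± 12.3 for siGL2. EIF4A2 was called in siCTU2 and pQ, at 0.98 ± 0.21 and 0.69 ± 0.20, and had 0.24 and 0.42 in siGL2 and mQ. It was called in 2 of the 3 fits that left out a replicate in siCTU2 and in 1 of 3 in pQ (largest adjusted p = 0.072 and 0.223). Its 3 h counts in siCTU2 were 361, 346 and 439 in T and 709, 756 and 769 in TCHX, without overlap. At 3 h alone the effect in siCTU2 was 0.96 and was not called (adjusted p = 0.076). In mQ the EIF4A2 effect was 0.61 (adjusted p = 4.1e-05) without replicate 3.

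Called in siCTU2 alone were EEF1E1 at 1.23 ± 0.27, EIF1AD at 0.60 ± 0.16, EEF1AKNMT at 0.45, the eIF2B subunits EIF2B4 and EIF2B5 at 0.41 each, EIF3J at 0.40 and EIF4E at 0.38. Without the TCHX library whose CTU2 level went against its label, EIF2B5 was at 0.37 (adjusted p = 0.0827), and EIF2B5 and EIF4E were called in 0 and 1 of the 3 fits that left out a replicate. EEF1E1 had 109, 132 and 107 normalised counts at 3 h of T and 202, 178 and 190 at 3 h of TCHX in siCTU2, and 317 at 5 h of TCHX in the library with CTU2 counts against its label. Without that library its effect was 0.87 (adjusted p = 0.0061). In T at 5 h, siCTU2 replicate 3 had 22.5 counts against 72.4 and 63.1. Without replicate 3 in both arms the EEF1E1 effect was 0.66 (adjusted p = 0.0087). At 3 h alone it was 0.71 and was not called (adjusted p = 0.46). EIF3J-DT was called in siGL2 at 0.86, and EIF3CL in pQ at −2.50 with single libraries far above the rest. EEF1A1 and EEF2 had effects of −0.30 to −0.05 and −0.16 to 0.04, none called.

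Whether the cycloheximide effect differed between conditions was tested by the interaction term. For siCTU2 against siGL2, 0 of 56 members passed (0.379% of all genes), and 5 had an unadjusted p under 0.05, among them EEF1E1 at 1.09 ± 0.38 (adjusted p = 0.26) and EIF4A2 at 0.74 ± 0.31 (adjusted p = 0.41). For mQ against pQ 0 of 56 members and 0% of all genes passed, and 1 member had an unadjusted p under 0.05. The calls made in siCTU2 alone were thus not shown to be particular to it.

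**Figure D3:**
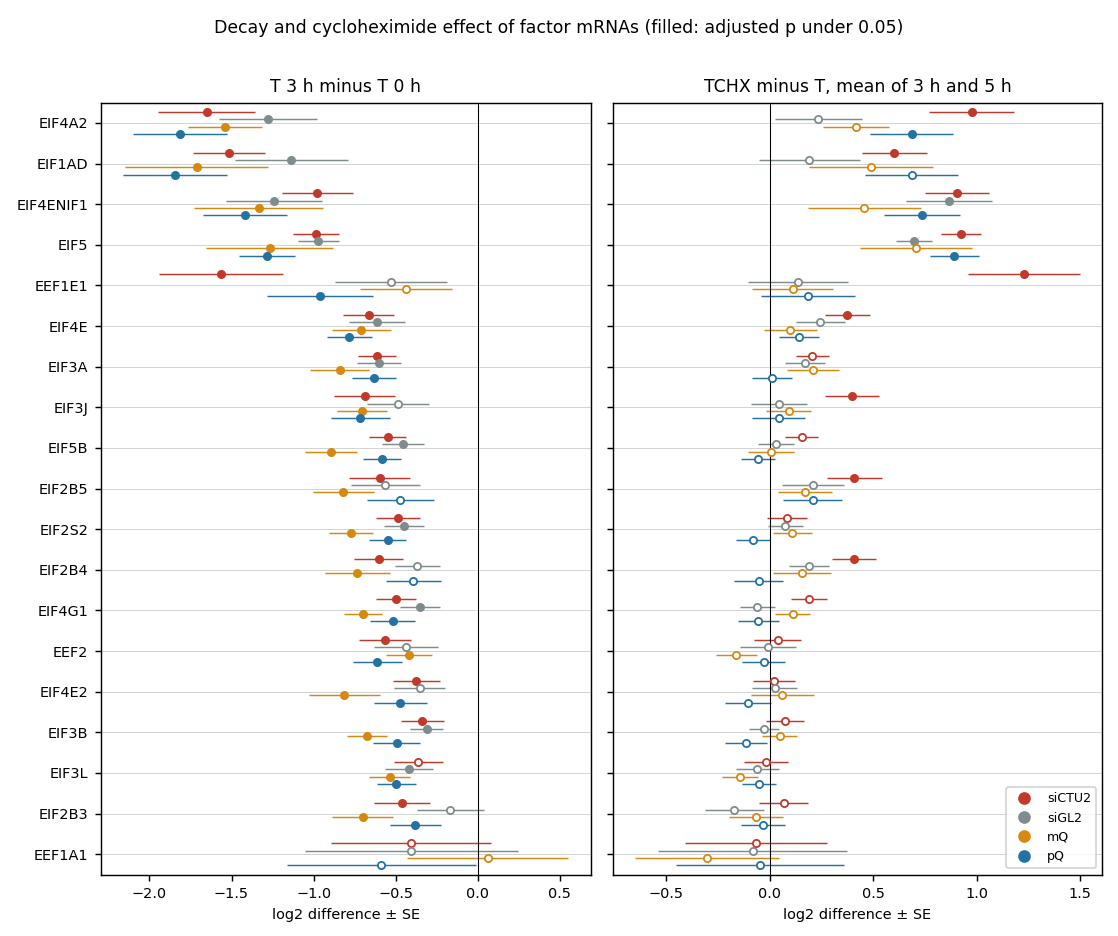
Log2 change from 0 to 3 h in the T arm (left) and mean TCHX minus T difference at 3 and 5 h (right) for 19 translation factors in the 4 conditions; filled points passed an adjusted p of 0.05. EIF4A2, EIF1AD, EIF4ENIF1 and EIF5 have filled decay points in all 4 conditions, and EEF1E1 in siCTU2 has a decay value of −1.56 and a cycloheximide effect of 1.23.

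**Figure D4:**
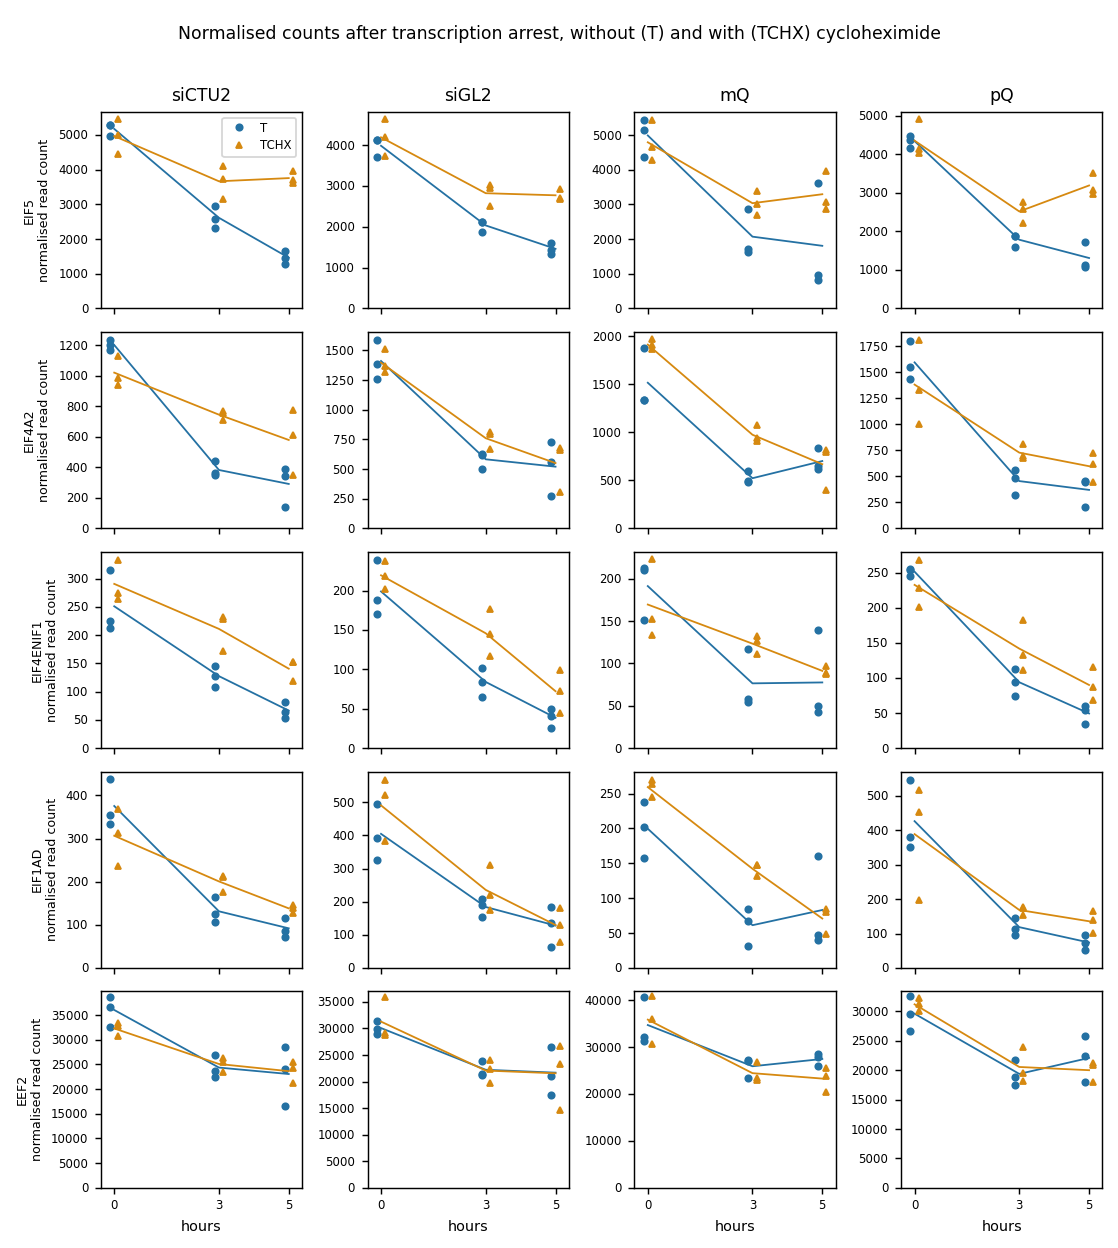
Normalised counts of EIF5, EIF4A2, EIF4ENIF1, EIF1AD and EEF2 at 0, 3 and 5 h in each condition, with a point for each library, for T and TCHX. EIF5 falls in T and stays higher in TCHX, except that mQ T replicate 3 at 5 h, at 3610, lies with the TCHX libraries, and EEF2 shows little separation of the arms.

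The index of translation-dependent decay (TDD index), the TCHX minus T difference in normalised counts divided by the 0 h count (the mean of both arms), was also compared. At an unadjusted p of at most 0.05 from a linear model with time and replicate terms, 5 of 55 members had a higher TDD index in siCTU2 than in siGL2 (8.15% of all genes, 7.28% higher and 0.873% lower), and 0 passed after adjustment (smallest adjusted p = 0.54). These were EIF4A2 (difference 0.22 ± 0.09, p = 0.047 of the linear model, not an exact test), EEF1AKNMT (0.15), EIF4G1 (0.12), EIF1AD (0.12) and EIF2B4 (0.12). The TDD index of EIF5 averaged 0.33 in siCTU2 and 0.25 in siGL2, a difference of 0.07 ± 0.04 that was not called. Between mQ and pQ, 4 members were higher and 1 lower (4.78% of all genes, 3.48% higher and 1.3% lower), with 0 after adjustment: EIF3A, EIF3B, EIF2S2 and EIF4G1 at 0.08 to 0.09 and the eIF4A cofactor EIF4B at −0.14 ± 0.05. The linear model took the 3 h and 5 h values of a replicate as separate, although both were divided by the same 0 h counts. Its p-values may therefore be too small.

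Regulators around the factors were followed through a list of 39 genes for kinases and phosphatase subunits, poly(A)-binding proteins, release and recycling factors and modifying enzymes. In siCTU2 7 of 37 tested were higher and 5 lower at 0 h, and in mQ 7 were higher and 6 lower, where 36% and 24.8% of all genes were called. PABPC1, which bridges the poly(A) tail and eIF4G, rose by 0.45 in siCTU2 and 0.50 in mQ, and MKNK2, an eIF4E kinase, by 0.77 and 0.69. LARP1, which binds mRNAs with a pyrimidine start, fell by 0.69 in siCTU2, and PPP1R15A, which directs a phosphatase to eIF2 alpha, rose by 1.82 in mQ. In the decay comparisons 19, 10, 26 and 27 of the list fell in siCTU2, siGL2, mQ and pQ, with 37 or 38 tested and 0 rising, where 36, 28.6, 55.4 and 55.2% of all genes fell. PPP1R15A had the largest fall after PELO and EIF2AK3 in siCTU2 (−1.71 ± 0.38) and was called for cycloheximide in all 4 conditions, at 1.25 to 2.36.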

How the data were processed

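QuantSeq libraries from 72 samples in 24 groups of 3 were analysed, grouped by their titles. The authors deposited a table of unnormalised read counts by gene. Following the study's methods and the submitters' processing notes, the authors trimmed forward reads with fastp 0.20.1, mapped them to GRCh38.p13 with HISAT2 2.2.1 and counted them on exons with HTSeq 0.13.5. No molecular identifiers were stated, so counts may include PCR copies. The table had 44659 gene names, and 0 sample columns were left without a sample. Start windows are from RefSeq (GRCh38.p14) and gene positions from GENCODE (GRCh38).

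Tests were run in R 4.3.3 on all genes, and members were read from the full tables. At 0 h edgeR 4.0.16 was used (filterByExpr, TMM, quasi-likelihood F-test, Benjamini-Hochberg adjustment, threshold 0.05) on the 6 or 12 libraries compared. Decay and cycloheximide effects used a fit of the 18 libraries of a condition in 6 groups, with size factors from stable genes. These had over 0.2 CPM at 0 h and rose by at least 10%, but to less than 10 times the 0 h value, by 3 or 5 h in every replicate of both arms and both conditions of an experiment. Differences between conditions used 36 libraries. The TDD index was fitted with a linear model on time, replicate number and condition for genes with at least 10 normalised counts at 0 h. The siCTU2 0 h fit, a siGL2 cycloheximide fit without replicate 3 and the TDD model were tested on simulated data. That cycloheximide fit used TMM scaling, and the simulated TDD values were drawn independently. The reported cycloheximide setting, with stable-gene scaling and all libraries, was thus not tested this way. Genes were named by rule: in each 0 h comparison the called members with the 5 largest rises and falls and 50 or more mean counts where higher, in each decay and cycloheximide comparison the 3 largest, in each TDD comparison the 3 smallest p-values, and 14 genes by role. Others are named where a count of calls needed them. Members, gene lists and tests were chosen with earlier results of these data known. Alternatives were DESeq2 1.42.0, limma 3.58.1, other scalings and filters, other times or arms, a replicate term, and leaving out libraries, and those excluding replicate 3 at 5 h or using an interaction test were added after seeing the data.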

Additional observations from a re-analysis of the deposited data

How the results depend on the processing

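Values below are numbers of translation factor genes called, with the number reported above in brackets, and the cause of each shift was not tested unless fewer libraries or genes entered the fit. At 0 h, against a minimum of 1.5-fold 3 were called for siCTU2 [24] and 0 for mQ [20], and in the TCHX arm 7 for mQ. For cycloheximide, 3 h alone gave 0 in siCTU2 [10] and 0 in pQ [4], 5 h alone 1 in siGL2 [3] and 2 in pQ, and subtracting the 0 h difference 5, 1 and 1 in siCTU2, siGL2 and pQ. In mQ [0], no filter gave 3, the replicate block 1, leaving out the library with extra genes 6 and leaving out replicate 3 at 5 h 10; the last gave 6 in siGL2, and genes stable at both times 16 in pQ. For decay in siCTU2 [18], 5 h gave 35, the TCHX arm 1, TMM 5, genes stable at both times 32 and no replicate 3 at 5 h 38. In siGL2 [13] these were 20 at 5 h, 3 with TMM, 31 with genes stable at both times, 8 without a filter and 37 with no replicate 3 at 5 h. TMM gave 1 in mQ [29] and 2 in pQ [30], and genes stable at both times 44 in mQ. The decay difference for siCTU2 [0] gave 1 with no replicate 3 at 5 h. TDD differences for siCTU2 [5] numbered 2 by limma on the mean over times with the replicate block, 11 with each arm divided by its own 0 h library, 2 with TMM, 3 without the library with extra genes, 3 with no replicate 3 at 5 h and 0 by the edgeR interaction. For mQ [5] they numbered 2 by limma, 21 by own 0 h library, 10 with TMM, 8 with no replicate 3 at 5 h and 0 by the interaction.

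Leaving out each library or replicate in turn gave 20 to 23 calls for siCTU2 and 6 to 24 for mQ at 0 h, 9 to 22 for their difference, 3 to 9, 1 to 10, 0 to 10 and 1 to 8 for cycloheximide in siCTU2, siGL2, mQ and pQ, and 2 to 27, 3 to 34, 11 to 31 and 11 to 45 for decay. It gave 0 to 0 and 0 to 6 for the decay differences and 0 to 9 and 1 to 5 for the TDD differences. Shifts over 1.5 times came as follows. At 0 h they came without mQ replicate 1 (11) or pQ replicate 1, 2 or 3 (6, 9 and 12), and for the difference without replicate 1 (9). For cycloheximide they came without replicate 1 in siCTU2 (3), replicate 1 or 3 in siGL2 (1 and 10), replicate 3 in mQ (10) and replicate 1, 2 or 3 in pQ (1, 1 and 8). For decay they came without replicate 1 in siCTU2 (2), replicate 1, 2 or 3 in siGL2 (3, 3 and 34), replicate 1 or 2 in mQ (17 and 11) and replicate 1 or 2 in pQ (13 and 11). For the mQ decay difference it was replicate 3 (6), and for TDD replicate 1 or 2 in siCTU2 (0 and 9) and in mQ (3 and 1).

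Signs reversed as follows. At 0 h mQ against pQ, EEF1A1 was 0.33 in the TCHX arm without pQ replicate 3. For the difference of both responses in the TCHX arm, EIF3A was 0.10, EIF4H −0.48, EIF1AD −0.0787, EIF2B1 −0.52, EIF4B −0.78 and EIF6 0.65. With TMM scaling, decay was 0.0507 and 0.128 for EIF4G1 in siCTU2 and siGL2. In mQ it was 0.0197 for EIF4E, 0.28 for EIF4EBP1, 0.0286 for EIF4G1, 0.11 for EIF6 and 0.31 for EEF2. In pQ it was 0.079 for EIF1, 0.0712 for EIF3A, 0.18 for EIF4G1, 0.34 for EIF6 and 0.0882 for EEF2. In pQ, EIF5A was −0.999 at 5 h, −0.60 in the TCHX arm and −0.599 to 3.25 when a replicate was left out (−0.599 without replicate 1), and EIF6 was 0.0273 at 5 h. The TDD difference for mQ was −0.0497 for EIF4G1 by own 0 h library, and for EIF2S1 0.0438 without the library with extra genes, −0.0592 to 0.0438 when a replicate was left out (highest without replicate 3) and 0.063 with no replicate 3 at 5 h. Of the values for single genes, 2551 kept direction and call, 277 lost the call, 100 gained it and 27 reversed.

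Replicate numbers were not taken as pairs, since not every correlation was over 0.1 and the labels name no shared batch: deviations of same-numbered libraries correlated at 0.0606, 0.0833 and 0.156 in the siRNA and 0.0842, −0.0684 and −0.028 in the medium experiment, and a library correlated best with its own number in 3 of 3 and 1 of 3, the first a hint from the data that numbers are shared. With the replicate block, calls at 0 h were 26 for siCTU2, 15 for mQ and 18 for their difference, and 19, 18, 31 and 44 for decay and 10, 3, 1 and 5 for cycloheximide in siCTU2, siGL2, mQ and pQ. Depth was low for EIF4A1, EIF4A3 and EIF3K, among others, with 0, 1 and 45 counts over all libraries.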
